A study of Ovis aries with 16 samples.

Results

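The livers of 4 female sheep exposed to excess testosterone before birth (prenatal T; ewes 48, 185, 233 and 255) were compared with the livers of 4 control ewes (98, 131, 132 and 201). The samples were chosen by their tissue and treatment labels, which gave 8 liver samples of 16 samples in all. The other 8 samples are muscle of the same ewes and enter only where an effect in liver was set against that in muscle. Each library came from total RNA of 1 animal, so the spread within a group mixes differences between ewes with those between libraries. The testosterone ester, its dose, the days of treatment and the age at sampling are not stated in the sources used here, and no strain or allele is named for either group.

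Prenatal testosterone excess in sheep is used as a model of developmental programming of reproductive and metabolic disorders, insulin resistance among them, and liver and muscle are main sites of insulin action. The RNA read here is non-coding. MicroRNAs (miRNAs) repress mRNAs that pair with their seed, small nucleolar RNAs (snoRNAs) guide chemical modification of ribosomal and spliceosomal RNA and mostly lie in introns of host genes, small nuclear RNAs (snRNAs) form the core of the spliceosome, and long non-coding RNAs (lncRNAs) are a mixed class. In a small RNA library the reads counted on a lncRNA are short, so whether they came from the long transcript or from a small RNA inside it was not tested.

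Values are normalised reads, that is reads divided by a factor for each library, class and tissue, and 1 read was worth 0.349 to 2.40 normalised reads in liver snRNAs and 0.492 to 1.65 in liver miRNAs. The 8 livers held 250251 to 887739 reads over the 4 classes. The labels of tissue were checked on marker miRNAs. MIR148A, which is abundant in hepatocytes, stood at 24560 to 45221 in the livers and at 759 to 1352 in the muscles, and MIR133, a muscle miRNA, stood at 123 to 816 in the livers and at 110969 to 250824 in the muscles, each tissue on its own scale. Of the 4 hepatocyte markers listed, MIR148A and MIR194 had a row in the table. MIR122 and MIR192 were not analysed here. No class took a share of the reads that differed between groups past the threshold. miRNAs took 81.5% ± 1.45 of the reads of control livers and 82.9% ± 1.51 of those of prenatal T livers (SD, n = 4 each; two-sided exact permutation test, p = 0.257), and lncRNAs took 15.7% ± 1.03 and 15.0% ± 0.836 (exact p = 0.343). The snoRNA share was 2.59% ± 0.312 in controls and 1.89% ± 0.712 after prenatal T (exact p = 0.0857; adjusted over the 4 classes, 0.343; smallest p possible, 0.0286), with ewe 48 at 0.830% (95% Wilson interval 0.812% to 0.850%, counting error only) and the other exposed ewes at 2.11% to 2.32%. The snRNA share was 0.222% ± 0.197 and 0.144% ± 0.0498 (exact p = 0.743), with control ewe 98 at 0.517% (0.494% to 0.542%) and the other controls at 0.113% to 0.131%.

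No RNA of any class differed between prenatal T and control livers past the threshold, an adjusted p of 0.05 by limma. This held for 0 of 81 miRNAs, 0 of 161 snoRNAs, 0 of 21 snRNAs and 0 of 121 lncRNAs tested (0% in each class), and 0 features in each class had an unadjusted p under 0.05. The smallest adjusted p was 0.959 for miRNAs, 0.982 for snoRNAs, 0.965 for snRNAs and 0.890 for lncRNAs. On the recovered reads, edgeR also called 0 in every class, with 3 miRNAs, 0 snoRNAs, 0 snRNAs and 2 lncRNAs at an unadjusted p under 0.05, and DESeq2 called 0, with 1, 0, 0 and 2. Effects pointed both ways. Of the miRNAs 42 were higher and 39 lower in point estimate, of the snoRNAs 76 and 85, of the snRNAs 10 and 11, and of the lncRNAs 57 and 64. These splits are relative to the other RNAs of a class and turn on the scaling. When the libraries were scaled to the reads of all 4 classes instead, 52 miRNAs were higher and 29 lower, 14 and 147 snoRNAs, 0 and 21 snRNAs, and 32 and 89 lncRNAs. The median log2 fold change moved from 0.01 to 0.09 for miRNAs, from -0.04 to -0.49 for snoRNAs, from -0.23 to -0.44 for snRNAs and from -0.08 to -0.29 for lncRNAs, with no feature called.

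How large an effect these livers could hide differed by class. The median absolute log2 fold change was 0.15 for miRNAs, against a median standard error (SE) of 0.25. It was 0.26 against 0.46 for snoRNAs, 0.23 against 0.46 for snRNAs and 0.29 against 0.44 for lncRNAs. The 95% interval of the effect lay within a 2-fold change for 72 of 81 miRNAs (88.9%), but for 33 of 161 snoRNAs (20.5%), 5 of 21 snRNAs (23.8%) and 30 of 121 lncRNAs (24.8%). A 2-fold effect of prenatal T was therefore outside the interval for most miRNAs, and inside it for most RNAs of the other classes. Level mattered as well: all 32 miRNAs with a mean of at least 1000 had intervals within 2-fold (median SE 0.20), against 7 of the 12 with a mean of 5 to 20 (median SE 0.33). Among snoRNAs the most abundant were the least precise, with a median SE of 0.78 for the 26 with a mean of 100 or more and 0.49 for the 83 with a mean of 5 to 20.

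**Figure D1:**
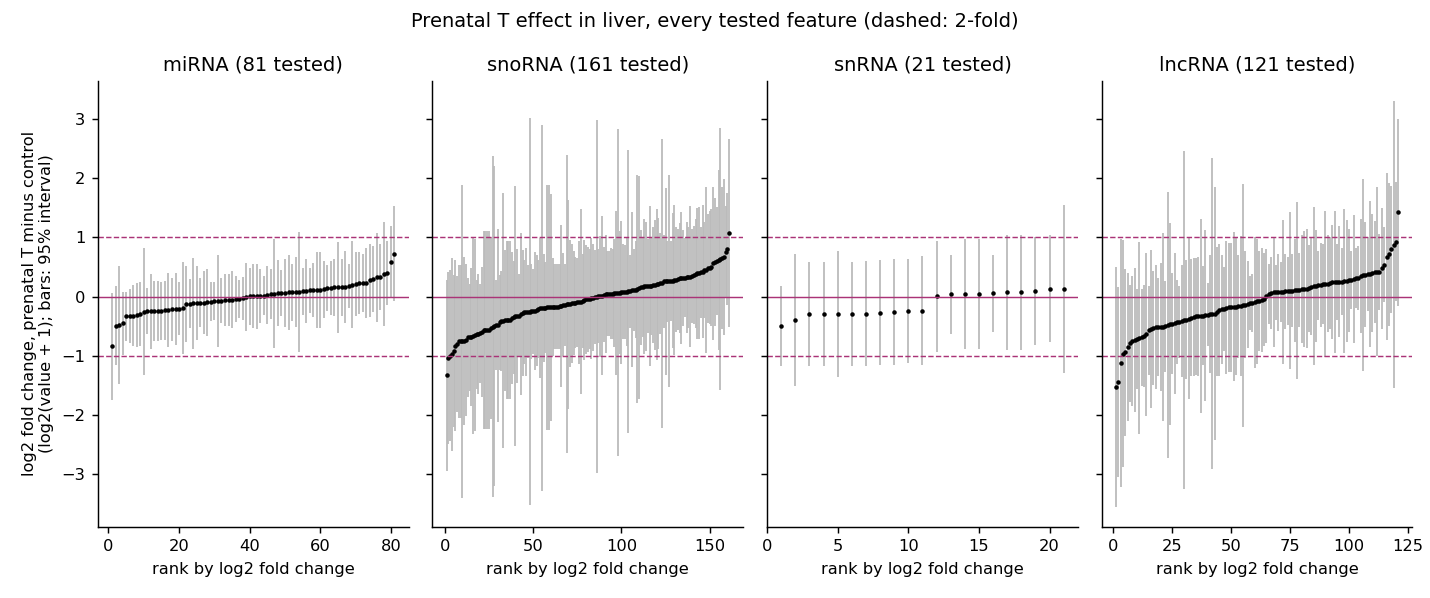
Log2 fold change of prenatal T against control livers (y axis, log2(value + 1) scale) for each tested feature of 4 RNA classes, ordered by size along the x axis. Points are estimates, bars 95% intervals and dashed lines a 2-fold change, and every interval crosses 0. Intervals of miRNAs are narrow (median SE 0.25) and many of those of snoRNAs wide (median SE 0.46).

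Of a list of 8 liver-typical miRNAs, MIR148A, MIR152 and MIR194 were tested and none was called, while the other 5, MIR122 and MIR192 among them, were not analysed here. The 3 had a median log2 fold change of -0.06 beside 0.01 over all 81 tested miRNAs. MIR148A, which targets lipid and cholesterol genes in hepatocytes, was 35909 ± 5873 in controls and 35413 ± 10853 after prenatal T (SD, n = 4). MIR194, which is made from a gene shared with MIR192 in liver and gut epithelium, was 9186 ± 1367 and 9907 ± 1697. The most abundant miRNA of all, MIR26A, which lies inside the phosphatase gene CTDSP2, read 44999, 66413, 62209 and 65030 in control ewes 98, 131, 132 and 201, and 52825, 64748, 54919 and 58178 in exposed ewes 48, 185, 233 and 255. The lowest liver was a control and the groups overlapped.

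The let-7 family, a set of miRNAs with a common seed that restrain growth factor and insulin signalling genes, had 7 members tested and none was called. All 7 were lower after prenatal T in point estimate, from -0.33 to -0.08 with a median of -0.20, and all 7 had an interval within 2-fold. When the libraries were scaled to the reads of all 4 classes, 6 of the 7 were lower and the median was -0.12. Summed over the family, normalised reads were 109739, 113660, 105631 and 118975 in the controls (ewes 98, 131, 132 and 201) and 81666, 113190, 103622 and 99955 after prenatal T (ewes 48, 185, 233 and 255). Ewe 48 was the lowest liver, ewe 185 lay among the controls, and without ewe 48 the median of the family was -0.04. MIRLET7A, its most abundant member, read 18641 in ewe 48 and 28989 to 37779 in the other 7 livers.

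miRNAs with known roles in insulin and glucose control were not called either (0 of 8 tested). The list held 17 names, of which 10 were not analysed here. The 8 tested had a median of 0.07, with 6 higher and 2 lower, and every interval lay within 2-fold. Among the higher ones, MIR29B-1 and MIR29B-2 have the same reads, so these copies are not separate observations. The miR-29 family represses collagens and, in liver, insulin signalling genes. Its most abundant member, MIR29A, read 3393, 4027, 3933 and 3657 in the controls and 4791, 4539, 4140 and 3270 after prenatal T, with the same order of ewes. The exposed ewes 48, 185 and 233 lay above every control and ewe 255 below every control, and the estimate was 0.15 (SE 0.18). MIR103 and MIR107, which lie inside the pantothenate kinase genes PANK3 and PANK1 and lower hepatic insulin sensitivity when raised, had estimates of 0.00 and 0.15. MIR103 was 1324 in control ewe 98 and 722 to 944 in the other 7 livers. The median of the 8 turned to -0.04 without ewe 98, and to -0.06 without ewes 98 and 48. When the libraries were scaled to the reads of all 4 classes, all 8 were higher (median 0.15).

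Lists for lipid metabolism, fibrosis and androgen action had no called member. Of their names, 8 of 14, 5 of 16 and 5 of 11 were not analysed here. Of 6 lipid miRNAs tested, among them the miR-30 family and MIR27A, 5 were higher and 1 lower (median 0.06). Without ewe 98, 2 were higher and 4 lower (median -0.021), without ewe 185 the median was -0.031, and without ewes 98 and 48, 1 was higher and 5 lower (-0.068). MIR27A, a repressor of lipid synthesis and storage genes, was 1971 in ewe 98 and 3629 to 5310 in the other 7 livers, so the lowest liver was again that control. Of 12 miRNAs of fibrosis and stroma, which again hold both copies of MIR29B, 8 were higher and 4 lower (median 0.09). This turned to 5 higher and 7 lower without ewe 48 (median -0.090) or without ewe 98 (-0.058), and to 3 higher and 9 lower without both. The median was also below 0 without ewe 131. MIR199A, which is made in stellate cells and other stroma, was 11325 ± 1948 in controls and 12734 ± 1775 after prenatal T, and MIR143, of smooth muscle, was 22041 ± 3229 and 21206 ± 4330. Of 6 miRNAs reported as androgen-responsive, 4 were higher and 2 lower (median 0.06). The median was -0.040 without ewe 98 and -0.072 without ewe 185, and without ewes 98 and 48, 1 was higher and 5 lower. Scaled to the reads of all 4 classes, 6 of 6 lipid, 10 of 12 fibrosis and 6 of 6 androgen miRNAs were higher (medians 0.14, 0.17 and 0.15). So were 52 of all 81 miRNAs under that scaling. The direction of these 3 lists thus rested on single livers, and the number of higher members turned on the scaling. One of the androgen miRNAs, MIR221, read 1162 in exposed ewe 185 and 416 to 569 in the other 7 livers.

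A list of the miR-17/92 and MCM7 clusters and related miRNAs, which promote cell division, had 5 members tested. These were MIR17, MIR19B, MIR106A, MIR106B and MIR25, with 1 higher and 4 lower (median -0.19), and none called. Of the 12 names listed, 7 were not analysed here. MIR25, inside MCM7, read 5589, 4584, 4113 and 4380 in the controls and 2844, 4475, 3936 and 3688 after prenatal T. The highest liver was control ewe 98, the lowest exposed ewe 48, and the groups overlapped (estimate -0.33, SE 0.19, adjusted p = 0.959 by limma). Without these 2 ewes 3 of the 5 members were higher and the median was 0.03.

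The imprinted DLK1-DIO3 region encodes the largest miRNA cluster of mammals, whose miRNAs are expressed from the maternal chromosome. It gave 53 miRNAs with a row in the table, of which 30 reached the minimum mean of 5. Their median was 0.06, with 18 higher and 12 lower, from -0.49 to 0.73, and 24 of the 30 intervals lay within 2-fold. The median was -0.062 without ewe 255, and DESeq2 gave 15 higher and 15 lower. Summed over the 53, reads were 10420 in control ewe 98, 5155 to 6692 in the other controls and 4794 to 7706 after prenatal T. MIR127, which lies antisense to RTL1, accounted for the largest part. It read 7491 in ewe 98 and 2489 to 4285 in the other 7 livers. The lncRNA LOC105606646, which holds many of these miRNAs in the annotation, was 243 ± 39.3 in controls and 259 ± 70.6 after prenatal T. GTL2, the maternally expressed lncRNA of the same region, had 9 reads over the 8 livers.

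A single feature of the 384 tested separated the groups fully. In MIR381, a member of the DLK1-DIO3 cluster, all 4 exposed livers lay above all 4 controls (1 of 81 miRNAs, 1.23%; 0 of 161 snoRNAs, 0 of 21 snRNAs and 0 of 121 lncRNAs, 0% each). No feature of any class had all exposed livers below the controls (0%). Normalised reads of MIR381 were 6.65, 5.19, 6.06 and 4.87 in control ewes 98, 131, 132 and 201, and 12.8, 6.82, 8.23 and 8.88 in exposed ewes 48, 185, 233 and 255. The nearest ewes, control 98 and exposed 185, differed by less than the worth of 1 read. The estimate was 0.58 (SE 0.28, adjusted p = 0.959 by limma), and the counts behind it were 5, 4, 6 and 5 reads in controls and 26, 8, 5 and 10 after prenatal T. MIR154A of the same cluster, at 1.95 to 5.32 in controls and 3.41 to 11.8 after prenatal T, had an estimate of 0.73 (SE 0.37). MIR485, also of the cluster, had one of -0.45 (SE 0.25). It read 59.8, 49.4, 59.6 and 60.3 in the controls and 33.9, 33.3, 52.7 and 49.7 after prenatal T. The lowest control lay below both of the highest exposed livers.

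**Figure D2:**
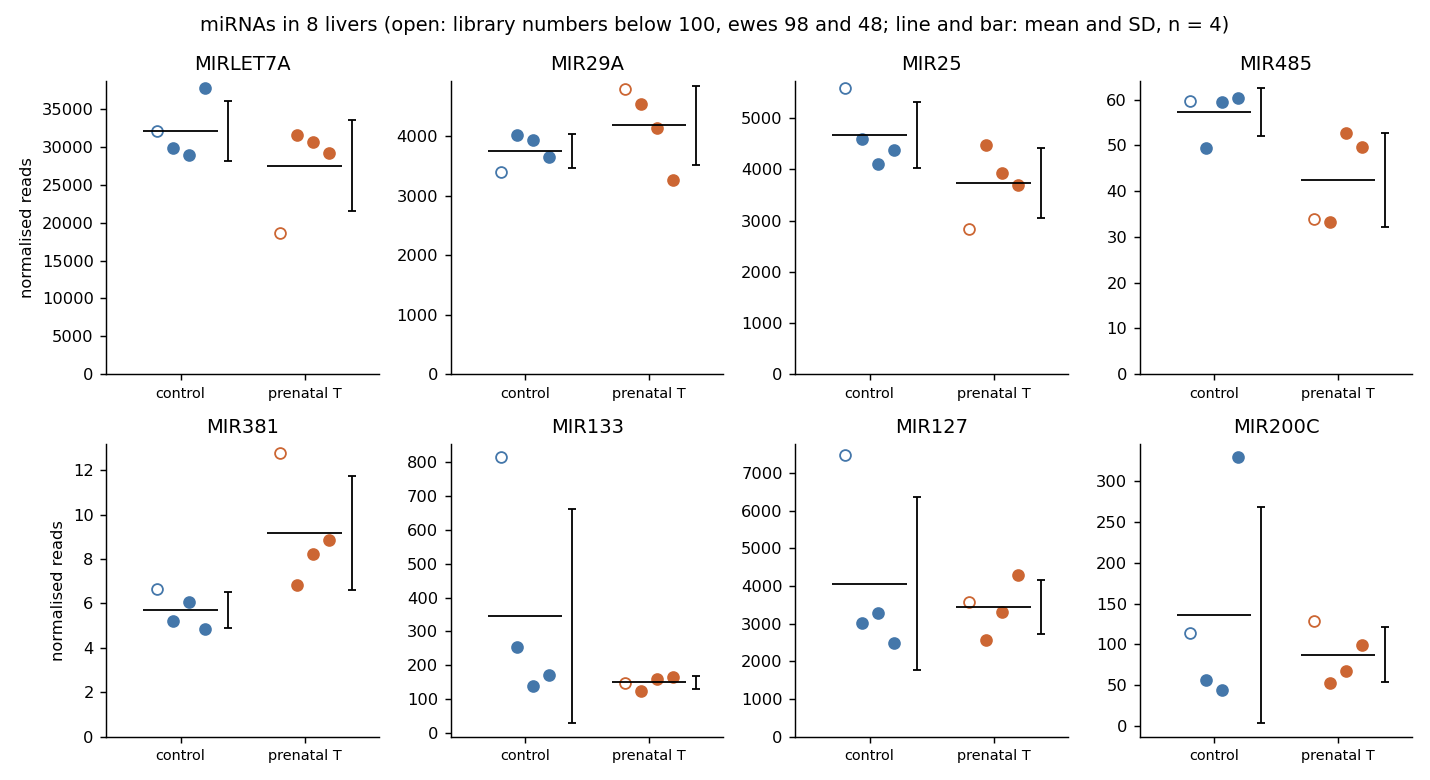
Normalised reads (y axis, linear from 0, own scale in each panel) of 8 miRNAs in control and prenatal T livers. Points are ewes, open points the livers with library numbers 49 and 53 (ewes 98 and 48), and lines with bars the mean and SD (n = 4). Groups overlap except in MIR381, and ewe 98 stands far above the others in MIR133 (816) and MIR127 (7491).

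Markers of other cell types varied between single ewes more than between groups. MIR133 had the largest estimate of any miRNA, -0.84 (SE 0.42, adjusted p = 0.959 by limma). Its normalised reads were 816, 255, 138 and 170 in the controls and 148, 123, 160 and 164 after prenatal T. Only ewe 98 was high, and without it the estimate was -0.30. The muscle markers MIR1 and MIR206 were not analysed here, and the part of other tissue in this value was not tested. The epithelial miR-200 family, which marks bile duct cells in liver, was lower in all 3 tested members in point estimate (median -0.21), or in 2 of 3 when scaled to the reads of all 4 classes. MIR200C read 114.3, 55.8, 43.4 and 330 in the controls and 128, 52.9, 67.5 and 99.4 after prenatal T. MIR200B read 1308, 2012, 1342 and 3023, and 2190, 1317, 1229 and 1688. Control ewe 201 was the highest liver in both, and without it the median of the family turned to 0.24. In whole tissue more cells of a type and more RNA per cell cannot be told apart. The blood cell miRNAs MIR150 (417 to 662 in controls, 326 to 657 after prenatal T) and MIR16B (1780 to 2410, and 1115 to 2063) overlapped between groups. They were 1 of 4 listed leukocyte markers and 1 of 4 listed red cell markers, and the others were not analysed here. Of the 6 listed epithelial markers, 3 were not analysed here.

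snoRNAs were grouped by host gene, and no member of any group was called. The 29 snoRNAs inside ribosomal protein genes had 16 higher and 13 lower (median 0.05), the 8 inside translation factor genes 4 and 4 (median 0.01), the 87 in other hosts 40 and 47 (median -0.06), and the 37 with no host gene in the annotation 16 and 21 (median -0.16), beside a median of -0.04 over all 161. The leading snoRNA, LOC114117067, inside the lncRNA LOC114116957 between ERN1 and TEX2, read 673, 986, 898 and 1146 in the controls and 462, 963, 846 and 913 after prenatal T. LOC114111353, inside the translation initiation factor gene EIF4G1, was 398 ± 44.9 and 425 ± 60.4 (SD, n = 4), and the exposed livers had the lower mean when scaled to the reads of all 4 classes. LOC114115077, inside the ribosomal scaffold gene RACK1, was 331 ± 122 and 296 ± 71.8. The smallest p of the class belonged to LOC114110868 inside CCAR1, which read 6.71, 12.6, 19.8 and 10.3 in the controls and 24.9, 18.9, 19.1 and 18.6 after prenatal T. Control ewe 132 lay above 3 of the 4 exposed livers, and the estimate of 0.76 (SE 0.35) had an adjusted p of 0.982 by limma. LOC114114650, inside LOC114114532, was 10.3 ± 5.94 and 17.0 ± 3.75 (estimate 0.80, SE 0.42). LOC114118580, inside RPL27A, was 12.6 ± 3.93 and 6.26 ± 4.61 (estimate -1.33, SE 0.72), with ewe 233 at 0, where 3 reads would give 5.22, and the estimate was -0.53 without that ewe.

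The tested snRNAs are few and share reads. LOC114111385 and LOC114111387 had the same reads in every liver, as had LOC114111391 with LOC114111405, so these copies are not separate observations. The highest snRNA, LOC114110196, between WDR74 and SLC3A2, read 44.7, 41.0, 81.1 and 64.1 in the controls and 72.8, 54.3, 57.6 and 21.4 after prenatal T. Control ewes 131 and 98 and exposed ewe 255 were its low livers. The smallest p belonged to LOC114115462, inside the lncRNA LOC132659970 beside PPEF2, at 34.3 ± 6.62 in controls and 24.8 ± 9.10 after prenatal T (estimate -0.49, SE 0.34, adjusted p = 0.965 by limma). With the minimum mean lowered to 1, 45 snRNAs were tested and 2 were called, LOC114109175 and LOC114109186 (adjusted p = 0.0173 by limma). These have the same reads, 0 in each control and 1, 3, 1 and 6 in ewes 48, 185, 233 and 255, 11 reads in all.

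The 5 leading lncRNA features had estimates of 0.07 to 0.32, and none was called. LOC114110111, the most abundant, read 14344, 31636, 23403 and 22936 in the controls and 33302, 28776, 25402 and 24269 after prenatal T (estimate 0.32, SE 0.24, adjusted p = 0.890 by limma). LOC114118399 read 6851, 11125, 11067 and 12922, and then 12939, 11955, 11395 and 13460 (estimate 0.28). Control ewe 98 was the lowest liver of both by a wide gap, and the other 7 overlapped. LOC105602212, which holds MIR125B, was 4704 ± 768 and 5925 ± 1546, and LOC105611269, which holds MIR181A-2, was 3523 ± 558 and 3708 ± 647. MIR125B itself was 11684 ± 1843 and 11408 ± 1443. By smallest p, the 3 first were LOC105605322 (4.24 ± 1.28 in controls, 9.54 ± 3.98 after prenatal T), LOC114117996 (4.34 ± 5.31 and 8.93 ± 2.49) and LOC114114883 (8.6 ± 4.3 and 3.2 ± 3.1). Each had 49 to 64 reads over the 8 livers, and their estimates were 0.93, 1.43 and -1.45. LOC114116379, between TNFRSF11B and SAMD12, read 22.0, 21.6, 26.0 and 17.6 in the controls and 27.8, 24.3, 38.1 and 40.0 after prenatal T (estimate 0.54, SE 0.29). Exposed ewe 185 lay between the controls. LOC101116622, between SRRM2 and FLYWCH1, had an estimate of -0.71 (SE 0.38).

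4 lncRNA features had been called lower after prenatal T in the muscle of these ewes in earlier results on the same data, and none was called in liver. LOC114118460 read 76.1, 3.82, 0 (a count of 0 allows up to 3 reads) and 4.40 in control livers and 5.70, 14.9, 9.08 and 20.5 in exposed livers. All 4 exposed livers lay above 3 of the controls and far below control ewe 98. The estimate was 0.88 (SE 1.08) over the 8 livers and 2.06 without ewe 98, and edgeR and DESeq2 put it at -0.52 and -0.75. LOC114112617 followed the same ewe: 2583, 411, 666 and 486 in controls against 806, 1539, 605 and 939, an estimate of 0.26 that was 0.84 without ewe 98. In muscle the same features were 51.3 ± 16.3 in controls and 11.2 ± 2.45 after prenatal T for LOC114118460, and 9317 ± 5195 and 2033 ± 968 for LOC114112617. LOC114113790, between HES1 and OPA1, was 36.5 ± 16.2 and 67.1 ± 39.5 in liver (estimate 0.80, SE 0.48), with ewe 185 highest at 122. LOC105607806, between ALOXE3 and PER1, was 21.8 ± 8.04 and 21.9 ± 19.1 (estimate -0.37, SE 0.61). Ewe 98 was also the liver with the most MIR133, and whether this bears on these lncRNA values was not tested.

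The spread within groups did not come evenly from the 8 livers. The labels number the libraries, and ewes 98 and 48 have numbers 49 and 53, whereas the other 6 livers have consecutive numbers above 100. What the numbers stand for is not stated. Each treatment group holds 1 of the low numbers. Ewes 98 and 48 together carried most of the within-group sum of squares of the snoRNAs, 33.9% and 26.97%, and 27.1% and 15.8% of that of the lncRNAs, while for miRNAs ewe 98 carried 29.0% and ewe 48 10.6%. For snRNAs the large parts were those of ewes 255 (25.9%), 131 (25.1%) and 132 (20.4%).

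Low and high library numbers were then compared in liver, with treatment kept as a term, a contrast chosen after the data were seen. Of the 161 snoRNAs, 47 were lower in the low-numbered livers (29.2%) and 20 were higher (12.4%) at an adjusted p of 0.05 by limma. Of the 121 lncRNAs 6 were lower (4.96%) and 4 higher (3.31%). No miRNA and no snRNA was called in either direction by limma (0%), with 15 miRNAs and 0 snRNAs under an unadjusted p of 0.05, and no other tool was run on it. In the lower set both low-numbered livers lay below all 6 others in 44 of the 47 snoRNAs and in 6 of 6 lncRNAs. In the higher set both lay above all 6 others in 18 of 20 snoRNAs and in 4 of 4 lncRNAs. The sets were chosen by this same contrast, so these counts are no separate support for it. Over all 161 snoRNAs tested, both lay below the other 6 in 45 and above them in 25. Over all 121 lncRNAs tested, the numbers were 12 and 12. Some of these snoRNAs have the same reads in every liver, so the 47 lower ones hold 46 different sets of reads and the 20 higher ones 15. The calls of the higher set depended on ewe 98: without it 34 snoRNAs were lower and 1 higher, while without ewe 48 the numbers were 48 and 33. Scaled to the reads of all 4 classes, 32 snoRNAs were lower and 6 higher.

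The snoRNA LOC114110519, in the gene C23H18orf32, shows the size of this gap. It read 4.03 in control ewe 98 and 3.69 in exposed ewe 48, and 129 to 217 in the other 6 livers (log2 difference -5.06, SE 0.23). LOC114116284, in the ribosomal protein gene RPS12, read 3.35 and 10.2 against 97.4 to 244, and LOC114113382, in the nucleolin gene NCL, read 11.4 and 17.5 against 270 to 428. These 3 have the largest within-group spread of all snoRNAs tested. Others lower by over 10-fold, named after their values were seen, include those in RPL4 (LOC114115928) and EIF4A2 (LOC114111381). Of the 47, 10 lie in ribosomal protein genes, out of 29 such snoRNAs tested, and 29 in other hosts, out of 87. Translation factor genes hold 1, out of 8, and 7 have no host, out of 37. Over all 161 tested the share was 29.2%. The lncRNA feature LOC106990385 read 227 and 75.9 against 2651 to 3841 (log2 difference -4.55, SE 0.31). With library set as a term, the estimates for prenatal T in these 4 features were -0.25 (SE 0.20), -0.20 (SE 0.34), 0.00 (SE 0.20) and -0.39 (SE 0.27), none called by limma.

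In muscle the labels give 7 ewes the numbers 57 to 63 and ewe 255 a number above 100. In the muscle of ewe 255, LOC114110519 read 111.6, against 0 to 7.08 in the other 7 muscles, and LOC106990385 read 1689 against 33.0 to 55.7. Of the 47 snoRNAs, 38 (80.9%) were higher in that muscle than in the other 7, compared with 61 of all 161 (37.9%), and so were 6 of the 6 lncRNAs, compared with 30 of 121 (24.8%). That muscle also had the fewest reads over the 4 classes, 239871 against 817350 to 1819374. Its snoRNAs took 1.42% of these reads, against 0.234% to 0.386% in the other muscles. MIR133 was 110969 in that muscle and 198090 to 250824 in the others. Library number and ewe cannot be told apart there, because a single muscle has a high number.

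**Figure D3:**
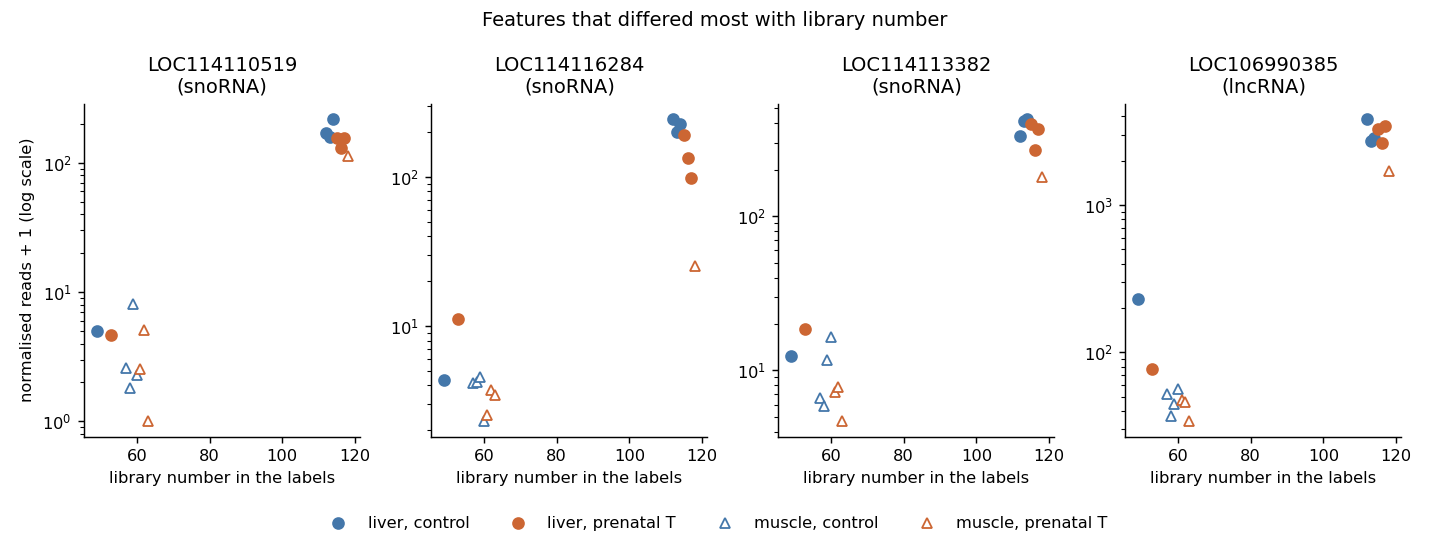
Normalised reads + 1 (y axis, log scale) of 3 snoRNAs and 1 lncRNA feature against library number (x axis) in 8 livers (circles) and 8 muscles (triangles), control in blue and prenatal T in orange. The livers numbered 49 and 53 lie far below the 6 with numbers above 100, and the single muscle with such a number lies above muscles 57 to 63. Among the livers of high number, control and exposed overlap in LOC114113382 and LOC106990385. In LOC114110519 and LOC114116284 each of these controls lies above each exposed liver, with no difference called by limma.

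Without ewes 98 and 48, 3 controls remained against 3 exposed livers. Still 0 features of any class were called by limma, with 0 miRNAs, 5 snoRNAs, 0 snRNAs and 5 lncRNAs at an unadjusted p under 0.05. The smallest adjusted p was 0.943, 0.683, 0.787 and 0.187 in these classes. With library set as a term over all 8 livers 0 were called as well, with 3, 6, 0 and 1 at an unadjusted p under 0.05, and the median SE of snoRNAs fell from 0.46 to 0.32. The features with the smallest p among the 6 livers, named after their values were seen, did not all keep their order in the other 2. LOC105603846 read 7.63, 16.0 and 17.6 in controls 131, 132 and 201 and 0.784, 0 and 2.93 in exposed 185, 233 and 255 (estimate -2.87, SE 0.67, adjusted p = 0.187 by limma). In ewes 98 and 48 the order was the opposite, at 1.83 and 15.2. LOC105616444 read 15.3, 14.0 and 9.69 and then 24.3, 52.7 and 32.2 (estimate 1.37), with control ewe 98 highest of all at 99.0. The snoRNA of RPS12, LOC114116284, read 244, 199 and 224 and then 190, 132 and 97.4 (estimate -0.71, SE 0.22, adjusted p = 0.683 by limma).

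The effect of prenatal T in liver was last set against that in muscle of the same ewes, by the difference of the log2 fold changes. It was called for 0 of 64 miRNAs, 0 of 105 snoRNAs and 0 of 82 lncRNAs (0% each), and for 2 of 21 snRNAs (9.52%) by limma. At an unadjusted p under 0.05 there were 2 miRNAs, 0 snoRNAs and 4 lncRNAs, and no other tool was run on this difference. These 2, LOC114117093 and LOC114117060, lie beside each other between TEX14 and RAD51C and are close to one observation. LOC114117093 read 25.8, 28.4, 21.0 and 17.5 in control livers and 18.0, 35.6, 14.4 and 33.7 in exposed livers, where the groups overlapped. In muscle it read 58.4, 39.9, 85.0 and 42.6 in controls and 37.7, 27.2, 20.2 and 3.19 after prenatal T, with every exposed muscle below every control. The liver effect was 0.05 (SE 0.33) and the muscle effect -1.64 (SE 0.60), a difference of 1.69 (SE 0.56, adjusted p = 0.0394 by limma). LOC114117060 gave 1.70 (SE 0.57), and its muscle groups overlapped, with exposed ewe 48 at 44.3 and control ewe 131 at 41.7. The muscle effects themselves were not called (adjusted p = 0.142 and 0.143 by limma). The call of the difference depended on single ewes. It was lost without ewe 255, whose muscle value is 1 read (adjusted p = 0.502), and without ewes 131, 132 or 201 (0.0928, 0.266 and 0.0539), and when the minimum mean was lowered to 1 (0.194).

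For lncRNAs the difference between tissues was called only once ewe 98 was left out, in 3 of 78 features tested. It was 4.17 (SE 0.78, adjusted p = 0.00548 by limma) for LOC114118460, 3.18 (SE 0.62, adjusted p = 0.00548) for LOC114112617 and 3.46 (SE 0.75, adjusted p = 0.00940) for LOC114113790. With all 8 ewes the smallest adjusted p of the class was 0.0879 by limma. All 3 are among the 4 features called before in the muscle of these ewes. The difference uses those same muscle values, so this overlap is no separate support. Ewe 98 had the highest control liver in each (76.1, 2583 and 55.9). Leaving out ewe 98, whose muscle was dropped from the difference as well, raised the liver estimates from 0.88, 0.26 and 0.80 to 2.06, 0.84 and 1.04.

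**Figure D4:**
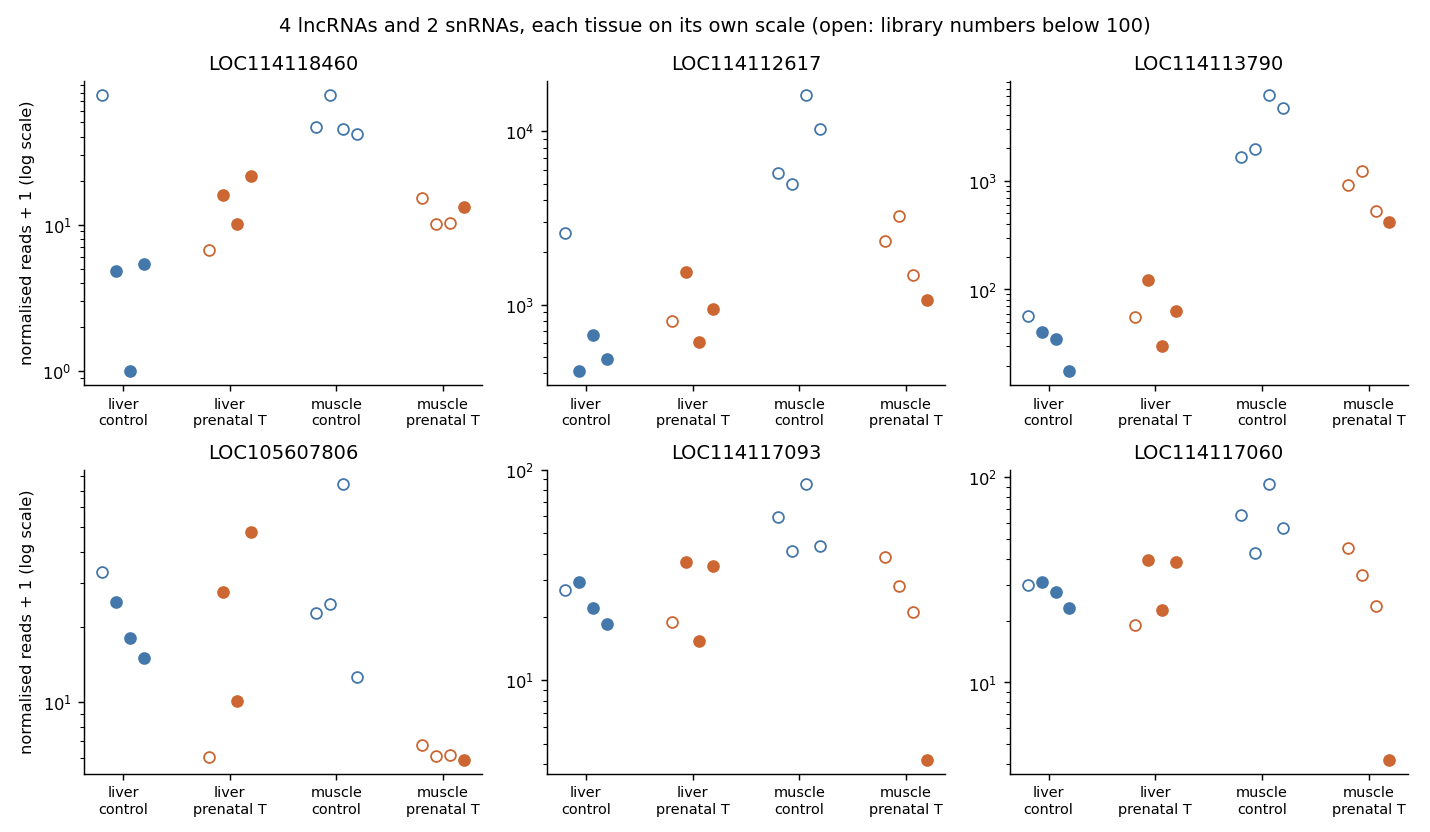
Normalised reads + 1 (y axis, log scale) of 4 lncRNA features and 2 snRNAs in control (blue) and prenatal T (orange) livers and muscles, with each tissue on its own scale. Points are ewes, open where the library number is 49 to 63. Exposed livers overlap the controls in every panel, and control ewe 98 is the highest liver for LOC114118460 (76.1) and LOC114112617 (2583).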

How the data were processed

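Small RNA of liver and muscle from 8 ewes was sequenced with 1 library per tissue and ewe. Per the submitters' processing notes cutadapt 3.2, STAR 2.6.0c and featureCounts 1.6.1 were used, without settings or a build. The deposited values are a normalised signal, in which the authors divided reads by a factor for each library, and 4 tables hold 105 miRNAs, 694 snoRNAs, 1148 snRNAs and 2973 lncRNAs. All values above 0 were whole multiples of 1 read within a tolerance (100% of 1432, 4471, 1099 and 10585 values), which gave the recovered reads. The tolerance was 0.001 reads and was widened in proportion to the count for large counts.

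Groups were compared within each class with limma 3.58.1 (variance trend, R 4.3.3) on log2(value + 1), keeping features whose mean over the 8 livers reached 5, with Benjamini-Hochberg adjustment within the class and a threshold of 0.05. Fold changes on this scale understate those of low features. As alternatives, edgeR 4.0.16 and DESeq2 1.42.0 were run on the recovered reads. Shares of reads were compared by an exact permutation test over 70 assignments. Reads have no molecular identifiers, so counting error is only part of their error. Pairs of livers of a group differed by 14.8 to 95.2 times counting noise (chi-square per degree of freedom), so none was taken as a duplicate. The fits were also run on simulated reads with known fold changes, drawn with 1 spread for all features of a class. The simulated effects of prenatal T came without a difference by library number. The outcome is not given here, and it cannot show how the fits behave with the uneven spread of these livers.

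Named features were, per class, the 5 most abundant (10 miRNAs), the 5 of smallest p, those with fully separated groups, the 3 of largest within-group spread, the leading members of 21 miRNA lists, and 4 lncRNAs called in muscle before. Of these, 5 snRNAs are not reported here, and some others are covered only by counts, ranges and medians. Members and lists were chosen with earlier results of these data known. Gene neighbours are from the RefSeq annotation of ARS-UI_Ramb_v3.0, which lists 105 of 105 miRNAs, 621 of 694 snoRNAs, 1010 of 1148 snRNAs and 1404 of 2973 lncRNAs. In the difference between tissues the main fit treated the 2 libraries of an ewe as separate, and so did the fits that left out ewes. An alternative fit paired the tissues by the label numbers of the ewes. Deviations from group means correlated between the 2 tissues of an ewe at -0.278 to 0.744 for snoRNAs and -0.889 to 0.460 for snRNAs. Control and exposed ewes are different animals, so the liver comparison itself has no pairs.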

Additional observations from a re-analysis of the deposited data

Results flagged for a closer look

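Within the groups of 4 livers, a value was marked where its gap to the nearest other liver exceeded the 95% critical value of Dixon's test for its group. Of 154 groups examined 19 (12.3%) held such a value, where chance marks about 1 in 20 groups. Some of these features were chosen for a large spread and copies count more than once, so the 2 shares cannot be compared. In all, 8 of the 19 came from control ewe 98. In that ewe MIR127 read 7491 (other controls 2489 to 3272), MIR103 1324 (722 to 799), MIR106B 916 (478 to 505), MIR181A-2 5925 (2988 to 3199) and MIR181A-1 5900 (2970 to 3192), which are 2 copies of 1 mature miRNA. Its lncRNA features LOC114118460 at 76.1 (0 to 4.40) and LOC114112617 at 2583 (411 to 666) were marked too, as was its snRNA share of 0.517% of reads (0.113% to 0.131%). Ewe 48 was marked for its snoRNA share of 0.830% (other exposed ewes 2.11% to 2.32%) and for LOC114110868 at 24.9 (18.6 to 19.1).

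The other marks were spread over 4 ewes. Exposed ewe 185 read 12437 in MIR194 (8847 to 9292), 10130 in MIR26B (9040 to 9071) and 552 in MIR379 (780 to 816). Exposed ewe 233 read 3.63 in LOC105605322 (10.7 to 12.0) and 23.6 in LOC105609478, inside ATF4 (0 to 3.92). Control ewe 131 read 49.4 in MIR485 (59.6 to 60.3) and 10261 in MIR26B (8857 to 8909). Control ewe 132 read 482.6 in MIR221 (562 to 569) and 798 in MIR379 (627 to 643).

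In 2 snRNAs the effect of prenatal T differed between liver and muscle by the test of the difference, LOC114117093 (1.69, SE 0.56) and LOC114117060 (1.70, SE 0.57; adjusted p = 0.0394 for both by limma). The effect was not called in either tissue alone (adjusted p = 0.965 in liver, 0.142 and 0.143 in muscle), and leaving out any of 4 ewes ends the call.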

How the results depend on the processing

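No alternative called any miRNA, snoRNA or lncRNA for prenatal T in liver. Among snRNAs a minimum mean of 1 gave 2 calls, the pair with 11 reads. The difference between tissues in snRNAs was unchanged at 2 calls with the replicate block of ewe, the paired fit, which changed no other call; it had 0 calls with a minimum mean of 1 and 0 to 2 when each ewe was left out, and lncRNAs had 0 to 3. For library number, leaving out single livers gave 0 to 8 miRNAs, 35 to 81 snoRNAs and 5 to 23 lncRNAs (0, 67 and 10 with all), a minimum mean of 20 gave 43 snoRNAs, since fewer were tested, and scaling to the reads of all 4 classes 38 snoRNAs and 6 lncRNAs. Without ewes 98 and 48 the difference in share turned to 0.0366 percentage points for snRNAs and 0.0405 for lncRNAs, and leaving out single livers put that of snRNAs at -0.115 to 0.0204. List medians moved for insulin and glucose to -0.067 with array weights, -0.057 without both ewes and -0.035 to 0.097 without single livers, for lipids to -0.096 with array weights, and for fibrosis to -0.19 and miR-17/92 to 0.029 without both ewes. Signs turned for LOC114118460 (-0.52 by edgeR, -0.75 by DESeq2, -0.034 to 2.06 without single livers), LOC114112617 (-0.093 by DESeq2, -0.041 to 0.84) and LOC105607806 (0.15 by edgeR, 0.014 by DESeq2, 0.25 with array weights, 0.32 without both ewes, -0.87 to 0.12). For these the cause was not tested. Of 1520 values recomputed, 1472 kept their direction and side of the threshold, or moved by less than the spread between livers. This count does not measure how firm the results are. List medians and fold changes by limma cannot move when the variance trend is dropped or library set is a term. Changes of sign that were smaller than the spread were counted as kept. Reads were fewest for the snRNAs, with 270 to 1750 reads per liver.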
